A study of Homo sapiens with 6 samples.

Results

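A group of 10 human noncoding RNAs was examined in the HK-2 transcriptome, namely *MALAT1*, *NEAT1*, *KCNQ1OT1*, *RN7SL1*, *RN7SL2*, *RN7SL3*, *RN7SK*, *RMRP*, *RPPH1*, and *SNORD3A*. Each RNA was looked up by its Ensembl identifier among the 29483 genes of the expression table. Rows were found for 6 of them, *MALAT1*, *NEAT1*, *KCNQ1OT1*, *RN7SL2*, *RN7SL3*, and *SNORD3A*, and the other 4 are not analysed here. The list was drawn up with results of these libraries known, and the RNAs with a row count as selected on their FPKM and its difference between the groups, so their levels and differences are given as a description and without a test.

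HK-2 is an established human cell line derived from the epithelium of the proximal tubule of the kidney. All cells were first kept for 7 days in medium with 25 mM glucose (HG), and then for 1 further day in HG with or without TEPP-46. The control group (HG, 3 libraries) received no TEPP-46, an activator of the glycolytic enzyme PKM2. The case group (HGTEPP, 3 libraries) received 10 μM TEPP-46 for that 1 day. The depth used here is the number of reads by which the FPKM values had been divided, recovered from the values themselves, and not the number of sequenced or aligned reads. For replicates 1, 2, and 3 it was 18634891, 17924033, and 17378710 in the control group, against 16711934, 16047243, and 15363254 in the case group. Expression is given as FPKM, the fragments per kilobase of gene length scaled to the reads of the library, and intervals or floors of reads cover counting error only. Differences are given on the log2 scale after FPKM values were scaled between libraries and 0.1 was added, and positive values mean higher in the case group.

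*RN7SL1*, *RN7SL2*, and *RN7SL3* encode copies of 7SL, the RNA of the signal recognition particle (SRP), which brings ribosomes that make secreted proteins to the endoplasmic reticulum. *RN7SK* encodes 7SK, which holds the elongation kinase P-TEFb inactive, *RMRP* and *RPPH1* encode the RNAs of RNase MRP and RNase P, and *SNORD3A* encodes U3, a box C/D small nucleolar RNA needed to process the precursor of ribosomal RNA. The 7SL, 7SK, MRP, and P RNAs are made by RNA polymerase III (Pol III) and carry no poly(A) tail. *MALAT1* and *NEAT1* are long RNAs of polymerase II that stay in the nucleus, at speckles and in paraspeckles respectively. Whether their reads come from RNAs with a poly(A) tail was not tested. *KCNQ1OT1* is an imprinted antisense RNA of the *KCNQ1* locus.

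A read can be given to 1 copy of 7SL only where the copies differ. Both genes lie on the minus strand of hg38, *RN7SL2* at chr14:49862550-49862849 and *RN7SL3* at chr14:49853616-49853914, and each is annotated as a gene of 1 exon. *RN7SL2* and *RN7SL3* were identical in 288 of 300 aligned columns (96.0%), with 11 mismatches and 1 gap. *RN7SL1*, which has no row, was 98.3% identical to *RN7SL2* and 97.7% identical to *RN7SL3*. Values of the 7SL genes are therefore uncertain as to which copy they count. *RN7SL2* also lies within ENSG00000282885, a long noncoding gene on the same strand that held 26, 34, and 26 reads in the control libraries and 21, 28, and 16 reads in the case libraries.

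The box C/D RNA of *SNORD3A* is shown because the gene model counted in the table is longer than the RNA. The plus-strand RefSeq extent at chr17:19188016-19188232 has 217 bases, while a length of 699 bases was used for its FPKM. Capitals mark the letters TGATGA, found at base 158, and the last CTGA, found at base 209. These are the letters of the C and D boxes that give the family its name.
SNORD3A: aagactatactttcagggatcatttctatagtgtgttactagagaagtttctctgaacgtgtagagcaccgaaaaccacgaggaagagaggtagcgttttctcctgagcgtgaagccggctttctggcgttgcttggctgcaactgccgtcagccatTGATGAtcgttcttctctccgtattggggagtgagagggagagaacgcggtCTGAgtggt

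The longest run of A in the *MALAT1* gene is shown since encoded runs of A can pair with oligo(dT). The RNA selection is not given in the sources used here. Capitals mark the run. It had 13 bases, and the window shown lies at chr11:65506058-65506150 on the plus strand. The bases after the run reach into the region from which the tRNA-like mascRNA is cut.
MALAT1: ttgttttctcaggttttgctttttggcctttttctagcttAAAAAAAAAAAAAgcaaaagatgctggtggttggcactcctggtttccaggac

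Runs of at least 8 A numbered 2 in *MALAT1*, 6 in *NEAT1*, and 36 in *KCNQ1OT1*. The longest run in *RN7SL2*, *RN7SL3*, and *SNORD3A* had 4 bases. The 7SL copies were also rich in G and C, at 62.7% in *RN7SL2* and 62.2% in *RN7SL3*, compared with 54.2% in *SNORD3A*, 42.0% in *MALAT1*, 44.1% in *NEAT1*, and 43.2% in *KCNQ1OT1*.

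Only *RN7SL2* ranked among the most abundant genes of the table. By mean FPKM over the 6 libraries, *RN7SL2* ranked 162nd, with 0.546% of the genes above it. *MALAT1* ranked 3135th, *RN7SL3* 8371st, *SNORD3A* 9098th, and *NEAT1* 9185th, and *KCNQ1OT1* was near 0. Within libraries, *RN7SL2* ranked 514th, 1291st, and 627th in the control group and 305th, 51st, and 84th in the case group. *MALAT1* ranked 8589th, 9011th, and 6902nd in the control group and 4219th, 1732nd, and 1234th in the case group. A mean FPKM of at least 0.5 was required for the comparison of all genes, and 5 of the 6 RNAs passed that filter, all but *KCNQ1OT1*.

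Among the 7SL copies, *RN7SL2* (ENSG00000274012) was at 87.6, 38.9, and 75.8 FPKM in the control libraries and at 154.8, 583.3, and 434.2 FPKM in the case libraries. The counted reads were 490, 209, and 395 in the control group and 776, 2808, and 2001 in the case group. The groups did not overlap, and case replicate 1 lay closer to the control group than the other 2 case libraries. Mean levels were 67.4 ± 25.4 FPKM (SD, n = 3) for controls and 390.7 ± 217.5 FPKM (SD, n = 3) for cases, a 5.80-fold difference. On the log2 scale the difference was 2.49 (SE 0.47), and case replicates 1, 2, and 3 stood 1.41, 3.22, and 2.84 above the control mean.

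*RN7SL3* (ENSG00000278771) was at 1.97, 0.933, and 0.192 FPKM in the control libraries and at 2.60, 7.29, and 4.79 FPKM in the case libraries. These values rested on 11, 5, and 1 reads in the control group and on 13, 35, and 22 reads in the case group, so that control replicate 3 was below the floor of 3 reads. The means were 1.03 ± 0.895 and 4.90 ± 2.35 FPKM (SD, n = 3 each). The log2 difference was 2.50 (SE 0.66), the widest error among the 5 RNAs. That difference was 3.13 without control replicate 1 and 1.72 without control replicate 3. The 95% Poisson interval of the reads of control replicate 1 (5.49 to 19.7) overlapped that of case replicate 1 (6.92 to 22.2). For each read of *RN7SL3*, 44.6, 41.8, and 395.0 reads were counted on *RN7SL2* in the control libraries and 59.7, 80.2, and 91.0 in the case libraries.

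The U3 gene *SNORD3A* (ENSG00000263934, chr17:19188016-19188714, plus strand) was at 0.691, 0.718, and 0.659 FPKM in the control libraries and at 2.65, 4.28, and 5.21 FPKM in the case libraries. The reads were 9, 9, and 8 in the control group and 31, 48, and 56 in the case group. All case libraries lay above all control libraries, and the controls were close to each other, with a mean of 0.689 ± 0.0299 FPKM against 4.05 ± 1.30 FPKM in the case group (SD, n = 3 each). The log2 difference was 2.41 (SE 0.22) and the ratio of the means 5.88-fold. Divided by the RefSeq length of 217 bases, the same reads would be 2.12 to 2.31 FPKM in the control group and 8.55 to 16.8 FPKM in the case group. U3 has near-identical gene copies, so reads that fit several of them may have been left uncounted.

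Among the long nuclear RNAs, *MALAT1* (ENSG00000251562, chr11:65497640-65508073, plus strand) was at 2.89, 2.58, and 4.79 FPKM in the control libraries and at 9.77, 29.3, and 41.9 FPKM in the case libraries. The reads were 471, 405, and 729 in the control group and 1429, 4121, and 5640 in the case group. Control replicate 3 was the highest control and case replicate 3 the highest case, without overlap of the groups. The means were 3.42 ± 1.20 and 27.0 ± 16.2 FPKM (SD, n = 3 each), a 7.90-fold difference with a log2 difference of 2.84 (SE 0.47). Case replicates 1, 2, and 3 stood 1.67, 3.15, and 3.70 above the control mean on the log2 scale.

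*NEAT1* (ENSG00000245532, chr11:65422774-65445540, plus strand), the scaffold RNA of paraspeckles and a neighbour of *MALAT1*, was at 2.23, 2.20, and 2.31 FPKM in the control libraries and at 1.72, 2.90, and 2.46 FPKM in the case libraries. The groups overlapped, since case replicate 1 was the lowest and case replicates 2 and 3 were the highest of the 6 libraries. The means were 2.24 ± 0.0577 and 2.36 ± 0.596 FPKM (SD, n = 3 each), and the log2 difference was 0.11 (SE 0.17), smaller than its own error. The level of *MALAT1* per *NEAT1*, as a ratio of FPKM, was 1.30, 1.18, and 2.08 in the control libraries and 5.67, 10.1, and 17.0 in the case libraries.

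*KCNQ1OT1* (ENSG00000269821, chr11:2597308-2700003, minus strand) had 0 reads in 5 libraries and 1 read in case replicate 1. The floor of 3 reads, applied here to a count of 0, would be 0.00176 to 0.00213 FPKM over its length. No difference of *KCNQ1OT1* between the groups was detectable at this depth.

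**Figure D1:**
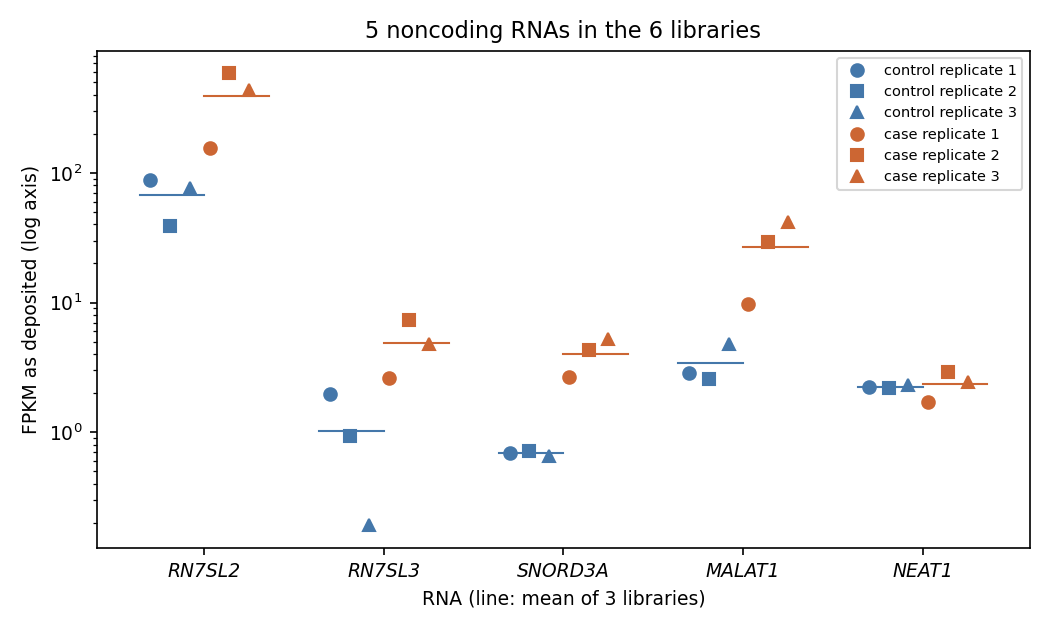
FPKM of 5 noncoding RNAs (log axis) in the 3 control (blue) and 3 case (orange) libraries, with the replicate as the symbol and the group mean as a line. The case points lie above the control points for *RN7SL2*, *RN7SL3*, *SNORD3A*, and *MALAT1*, with case replicate 1 the lowest case library in each, and the groups overlap for *NEAT1*.

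Altogether, 4 of the 6 RNAs were higher in all case libraries than in all control libraries, and none was lower. Among the 13599 tested genes, the same was true of 19.5% with the case group higher and of 20.4% with the case group lower, together 39.9%. Since the RNAs had been named with this contrast known, nothing is read from that count. By size, the median log2 difference of all tested genes was −0.0017 and the 99th percentile 1.20, and 51 genes (0.375%) had a log2 difference of at least 2. Differences above that of *MALAT1* were found for 17 genes, above *RN7SL2* for 36, above *RN7SL3* for 34, above *SNORD3A* for 36, and above *NEAT1* for 4917. Unrounded differences were counted against the rounded difference of each RNA. An RNA may therefore have been counted as above itself, and the counts are approximate.

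The order of levels differed between the groups. *RN7SL2* was the highest of the RNAs and *MALAT1* the next in all 6 libraries. In the control libraries *NEAT1* followed and stood above *RN7SL3* and *SNORD3A*, although control replicate 1 had 2.23 FPKM of *NEAT1* and 1.97 FPKM of *RN7SL3*. In the case libraries *NEAT1* was below *RN7SL3* and *SNORD3A*, and these 2 changed places between case libraries. The 6 RNAs summed to 0.0325%, 0.0157%, and 0.0283% of the FPKM sum of the control libraries and to 0.0530%, 0.202%, and 0.151% of that of the case libraries. *RN7SL2* alone held 85.8% to 93.0% of the summed FPKM of the 6 RNAs.

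Case replicate 1 was the lowest case library for all 5 detected RNAs. Without it, *NEAT1* was also higher in the case group without overlap, and its log2 difference was 0.30, while those of *MALAT1*, *RN7SL2*, *RN7SL3*, and *SNORD3A* were 3.43, 3.03, 2.86, and 2.66. With case replicate 1 as the only case library, they were 1.67, 1.42, 1.79, and 1.93, and −0.23 for *NEAT1*. On the log2 scale, the tested genes had a median SD of 0.0886 among controls and 0.189 among cases.

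Other rows of RNA without a poly(A) tail were compared library by library as RPM, the reads per 1000000 reads of the library. Genes named as other snoRNAs, Cajal body RNAs, spliceosomal and U7 snRNAs, Y RNAs, vault RNAs, 7SL copies and pseudogenes, and 7SK pseudogenes filled 690 rows. Their sum was 24.8, 27.7, and 29.8 RPM in the control libraries and 21.3, 43.4, and 42.1 in the case libraries. The groups overlapped, since case replicate 1 was below all controls and case replicates 2 and 3 were above them, and a 1.30-fold ratio of the means gave p = 0.4 (two-sided exact permutation test, n = 3 per group, smallest possible p = 0.1). None of the 8 classes gave a p below 0.2 in the same exact test, and with 3 libraries per group no class could pass after adjustment over the 8 classes.

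By class, the snRNA-named genes, which include pseudogenes of the spliceosomal RNAs, were at 6.82, 8.31, and 8.46 RPM in the control libraries and at 7.30, 13.6, and 16.3 in the case libraries. The other 7SL-named genes were at 3.92, 3.68, and 4.78 in the control libraries and at 2.87, 6.61, and 6.90 in the case libraries. Their reads were fewer than those of *RN7SL2* alone, which was at 26.3, 11.7, and 22.7 RPM in the control group and at 46.4, 175.0, and 130.2 in the case group. The box C/D snoRNAs other than *SNORD3A* were at 5.04, 5.97, and 6.85 in the control group and at 3.05, 9.47, and 7.29 in the case group, and the box H/ACA snoRNAs at 6.44, 7.31, and 6.79 and at 5.39, 8.97, and 8.79.

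Of these 690 genes, 103 passed the FPKM filter, and 4 were upregulated and 5 downregulated in the limma test at an adjusted p of at most 0.05. Over all genes tested, 7.34% were upregulated and 5.84% downregulated. All 9 DE genes rested on few reads. The Cajal body RNA *SCARNA7* had 0 reads in each control library and 7, 9, and 6 in the case libraries, and *RNU6-8* had 6, 3, and 3 reads in the control libraries and 19, 9, and 7 in the case libraries (adjusted p = 0.0278, limma). *SNORA5C* fell from 17, 13, and 15 reads to 10, 7, and 5 (adjusted p = 0.0451, limma), and the box C/D RNA *SNORD116-2* had 1, 4, and 1 reads in the control libraries and 0 in each case library. *SCARNA7*, *RNU6-341P*, *SNORD116-2*, *SNORA12*, *SNORA46*, and *RNU1-72P* passed the filter only through the group in which they were higher, so that their entry into the test already required a difference. The other DE genes, with at most 6 reads in any library, were *SNORD104* and *RNU6-341P* (higher in the case group) and *SNORA12*, *SNORA46*, and *RNU1-72P* (lower). With quantile normalization 4 rose and 3 fell, and with case replicate 1 as the only case library 2 rose and 17 fell, a comparison of 1 library whose spread was taken from the control group. By voom on the recovered reads, only *SCARNA7* passed, while the adjusted p was 0.0652 for *RNU6-8* and 0.223 for *SNORA5C*. Without case replicate 1 the count was 15, and leaving out control replicate 1, 2, or 3 left 3, 2, or 1 calls.

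Rows inside the 45S ribosomal RNA repeats, chosen after their values were seen and therefore given without a test, had a larger ratio of the group means than any class above. The 10 rows summed to 61.9, 51.0, and 142.8 RPM in the control libraries and to 373.1, 883.0, and 1467 in the case libraries, a 10.7-fold ratio of the means. Control replicate 3 was the highest control library and case replicate 3 the highest case library, as for *MALAT1*, and case replicate 1 was the lowest case library. For *RN7SL2*, *RN7SL3*, and *SNORD3A*, control replicate 3 was not the highest control library. Case replicate 3 was the highest case library for *SNORD3A* too, but not for *RN7SL2* or *RN7SL3*. Most of these reads lay on ENSG00000281181, which held 1133, 881, and 2371 reads in the control libraries and 5935, 12726, and 19039 in the case libraries. Genes encoded by the mitochondrial genome differed less, 1.33-fold as a ratio of mean RPM, with 33630, 33170, and 33710 in the control libraries and 42740, 46530, and 44290 in the case libraries. Replication-dependent histone genes, whose mRNAs lack a poly(A) tail, were at 587.2, 572.4, and 593.3 in the control libraries. They were at 702.7, 666.0, and 730.2 in the case libraries, a 1.20-fold ratio. The mitochondrial and histone sets were also chosen after their values were seen and are given without a test. The part of ribosomal RNA content and of RNA selection in the differences of the noncoding RNAs was not tested.

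**Figure D2:**
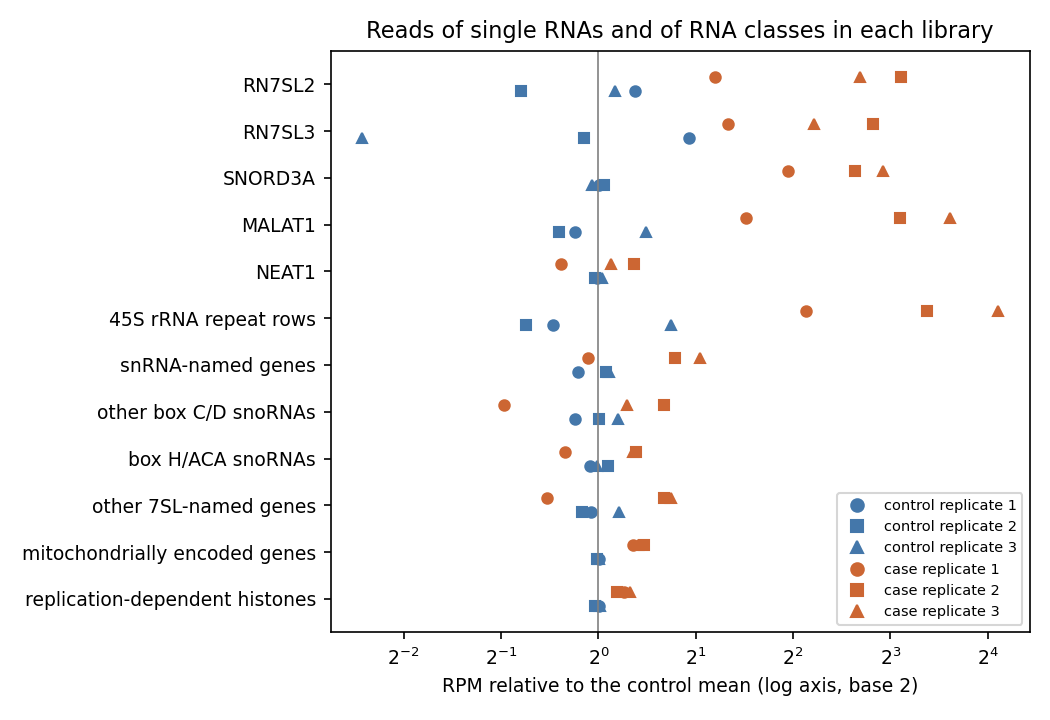
RPM of 5 noncoding RNAs and of 7 groups of genes in each library, relative to the mean of the control libraries (log axis, base 2; blue control, orange case; symbols are replicates). *RN7SL2*, *RN7SL3*, *SNORD3A*, *MALAT1*, and the 45S rRNA repeat rows lie to the right in all case libraries, while the snoRNAs, snRNA-named and other 7SL-named genes of case replicate 1 lie left of 1.

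The protein partners of the RNAs, the Pol III machinery, and the neighbouring genes were read from the comparison of all genes, which called 1792 of 13599 genes (13.2%), 998 upregulated and 794 downregulated. Of 83 listed genes, 82 had a row and 80 were tested, and 12 rose and 5 fell, or 21.2%, with a median log2 difference of 0.07. The division depended on the scaling, with 7 up and 6 down for FPKM as deposited, 8 up and 6 down after quantile normalization, and 3 up and 14 down as TPM, which moved the median of all genes to −0.19. Over all genes, 55.7% of the calls were upregulated, compared with 37.1% for FPKM as deposited, 48.9% after quantile normalization, and 13.8% as TPM. The calls were few without control replicates 1, 2, and 3, with 1, 0, and 0 of the 80 genes and 105, 69, and 87 of all tested genes, and without case replicate 3, with 1 and 192. Without case replicate 2 they were many, with 31 of the 80 genes and 3495 of all genes.

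Of the 8 SRP genes, 2 rose and none fell. *SRP14*, which binds the Alu domain of 7SL, was at 147.0, 138.5, and 135.3 FPKM in the control libraries and at 160.9, 162.9, and 183.5 FPKM in the case libraries (log2 difference 0.34, SE 0.08, adjusted p = 0.0354, limma). *SRPRB*, the membrane-bound subunit of the SRP receptor, rose by 0.39 (SE 0.08, adjusted p = 0.0233, limma). *SRP14* did not pass for FPKM as deposited (adjusted p = 0.053, limma), after quantile normalization (log2 difference 0.11, adjusted p = 0.355), or as TPM (0.15, adjusted p = 0.173), nor did *SRPRB* as TPM (0.19, adjusted p = 0.138). *SRP54*, which recognizes the signal peptide, averaged 45.1 ± 1.13 FPKM in controls and 45.5 ± 6.32 FPKM in cases (SD, n = 3 each), and its groups overlapped. *SRP68* and *SRP72*, which bind 7SL together, had log2 differences of 0.07 (SE 0.08) and −0.11 (SE 0.07), neither past the threshold.

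Of the 7 genes of the 7SK particle and P-TEFb, only *HEXIM1* passed the threshold. *HEXIM1*, the inhibitor of P-TEFb that 7SK activates, was at 15.6, 14.4, and 15.2 FPKM in the control libraries and at 10.3, 9.97, and 8.66 FPKM in the case libraries. The log2 difference was −0.57 (SE 0.10, adjusted p = 0.0159, limma), without overlap of the groups. *LARP7* and *MEPCE*, which stabilize and cap 7SK, had log2 differences of −0.12 (SE 0.16) and 0.22 (SE 0.11), and the kinase gene *CDK9* had −0.04 (SE 0.09).

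Of the 10 tested genes of the RNase P and RNase MRP proteins, 4 rose and 1 fell. *POP5* rose from 17.9 ± 0.487 to 25.5 ± 1.02 FPKM (SD, n = 3 each; log2 difference 0.58, adjusted p = 0.0105, limma), and *RPP38*, *RPP40*, and *POP7* rose by 0.53, 0.43, and 0.44. *POP1*, the largest protein of both enzymes, fell by 0.39 (SE 0.10, adjusted p = 0.0458, limma). As TPM, *RPP40* and *POP7* did not pass (log2 differences 0.23 and 0.24, adjusted p = 0.14 and 0.0517, limma), and *POP1* did not after quantile normalization (−0.32, adjusted p = 0.078). *RPP30* was at 0.30 (SE 0.09, adjusted p = 0.0666, limma), and *RPP21* was below the filter.

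Of the 5 genes of the U3 and box C/D particles, *NOP58* and *NOP56* rose, the paired core proteins that bind box C/D RNAs. *NOP58* was at 27.6, 25.0, and 28.5 FPKM in the control libraries and at 29.3, 41.2, and 45.5 FPKM in the case libraries (log2 difference 0.57, SE 0.14, adjusted p = 0.0388, limma). Case replicate 1 was again the case library nearest to the controls. *NOP56* differed by 0.35 (SE 0.09, adjusted p = 0.0425, limma). Neither passed for FPKM as deposited (adjusted p = 0.0698 and 0.0517, limma), after quantile normalization (0.0878 and 0.0517), or as TPM (log2 differences 0.37 and 0.15, adjusted p = 0.124 and 0.145). The methyltransferase gene *FBL* had a log2 difference of −0.06 (SE 0.14), and *RRP9*, the protein specific to U3, one of −0.02 (SE 0.13).

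Proteins of paraspeckles and of nuclear speckles were read as partners of the long nuclear RNAs, and the lists were not compared with each other. No gene of the 8 paraspeckle proteins passed the threshold, and the nearest was *HNRNPH3* at −0.30 (SE 0.09, adjusted p = 0.0538, limma), while 2 had an unadjusted p under 0.05. *SFPQ* and *NONO*, core proteins that bind *NEAT1*, had log2 differences of 0.23 (SE 0.08) and −0.16 (SE 0.08). In the list of 4 nuclear speckle genes, *SON* and *SRRM2*, which form the core of speckles, fell. *SON* was at 17.6, 18.0, and 17.2 FPKM in the control libraries and at 8.37, 12.0, and 9.31 FPKM in the case libraries, with a log2 difference of −0.77 (SE 0.11, adjusted p = 0.0127, limma). *SRRM2* fell from 25.7 ± 0.533 to 16.0 ± 2.76 FPKM (SD, n = 3 each; log2 difference −0.61, adjusted p = 0.0171, limma). *SRSF1* and *SRSF2*, splicing factors that gather in speckles, had log2 differences of 0.26 (SE 0.08) and 0.23 (SE 0.11) and did not pass.

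Of the 13 genes of Pol III subunits, 2 rose and 1 fell. *POLR3C* and *CRCP* rose by 0.29 and 0.34 (adjusted p = 0.0492 and 0.0498, limma). Neither passed for FPKM as deposited (adjusted p = 0.101 and 0.0856, limma), after quantile normalization (0.166 and 0.0585), or as TPM (log2 differences 0.09 and 0.14, adjusted p = 0.461 and 0.286). *POLR3G*, the alternative of *POLR3GL* in the enzyme, fell from 10.2 ± 0.368 to 7.06 ± 0.658 FPKM (SD, n = 3 each; log2 difference −0.45, adjusted p = 0.0212, limma), and *POLR3GL* had a log2 difference of 0.18 (SE 0.12). The catalytic subunits *POLR3A* and *POLR3B* had log2 differences of −0.21 (SE 0.10) and −0.05 (SE 0.13). Of 18 genes that act in Pol III initiation, its repression, or the binding of its new transcripts, only *SNAPC5* passed. *SNAPC5*, a subunit of the complex that recognizes promoters of snRNA type, was at 10.3, 8.34, and 8.33 FPKM in the control libraries and at 11.6, 14.1, and 13.8 FPKM in the case libraries (log2 difference 0.62, SE 0.11, adjusted p = 0.0179, limma). *MAF1*, the repressor of Pol III, was at 144.7 ± 31.5 and 147.7 ± 37.9 FPKM (SD, n = 3 each), and *BRF1* and *BDP1* of the initiation factor TFIIIB had log2 differences of 0.02 (SE 0.09) and −0.43 (SE 0.26).

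Genes beside *MALAT1* and *NEAT1* on chromosome 11, *FRMD8*, *LTBP3*, and *SLC25A45*, did not pass the threshold. Their log2 differences were −0.03 (SE 0.10), −0.03 (SE 0.17), and −0.31 (SE 0.25). Of the imprinted neighbours of *KCNQ1OT1*, *PHLDA2* rose from 96.5 ± 7.16 to 135.6 ± 23.7 FPKM (SD, n = 3 each; log2 difference 0.56, adjusted p = 0.043, limma), but did not pass as TPM (0.36, adjusted p = 0.0561). *CDKN1C* had a log2 difference of 0.33 (SE 0.19) and *SLC22A18* of 0.02 (SE 0.13), and *KCNQ1* was below the filter.

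**Figure D3:**
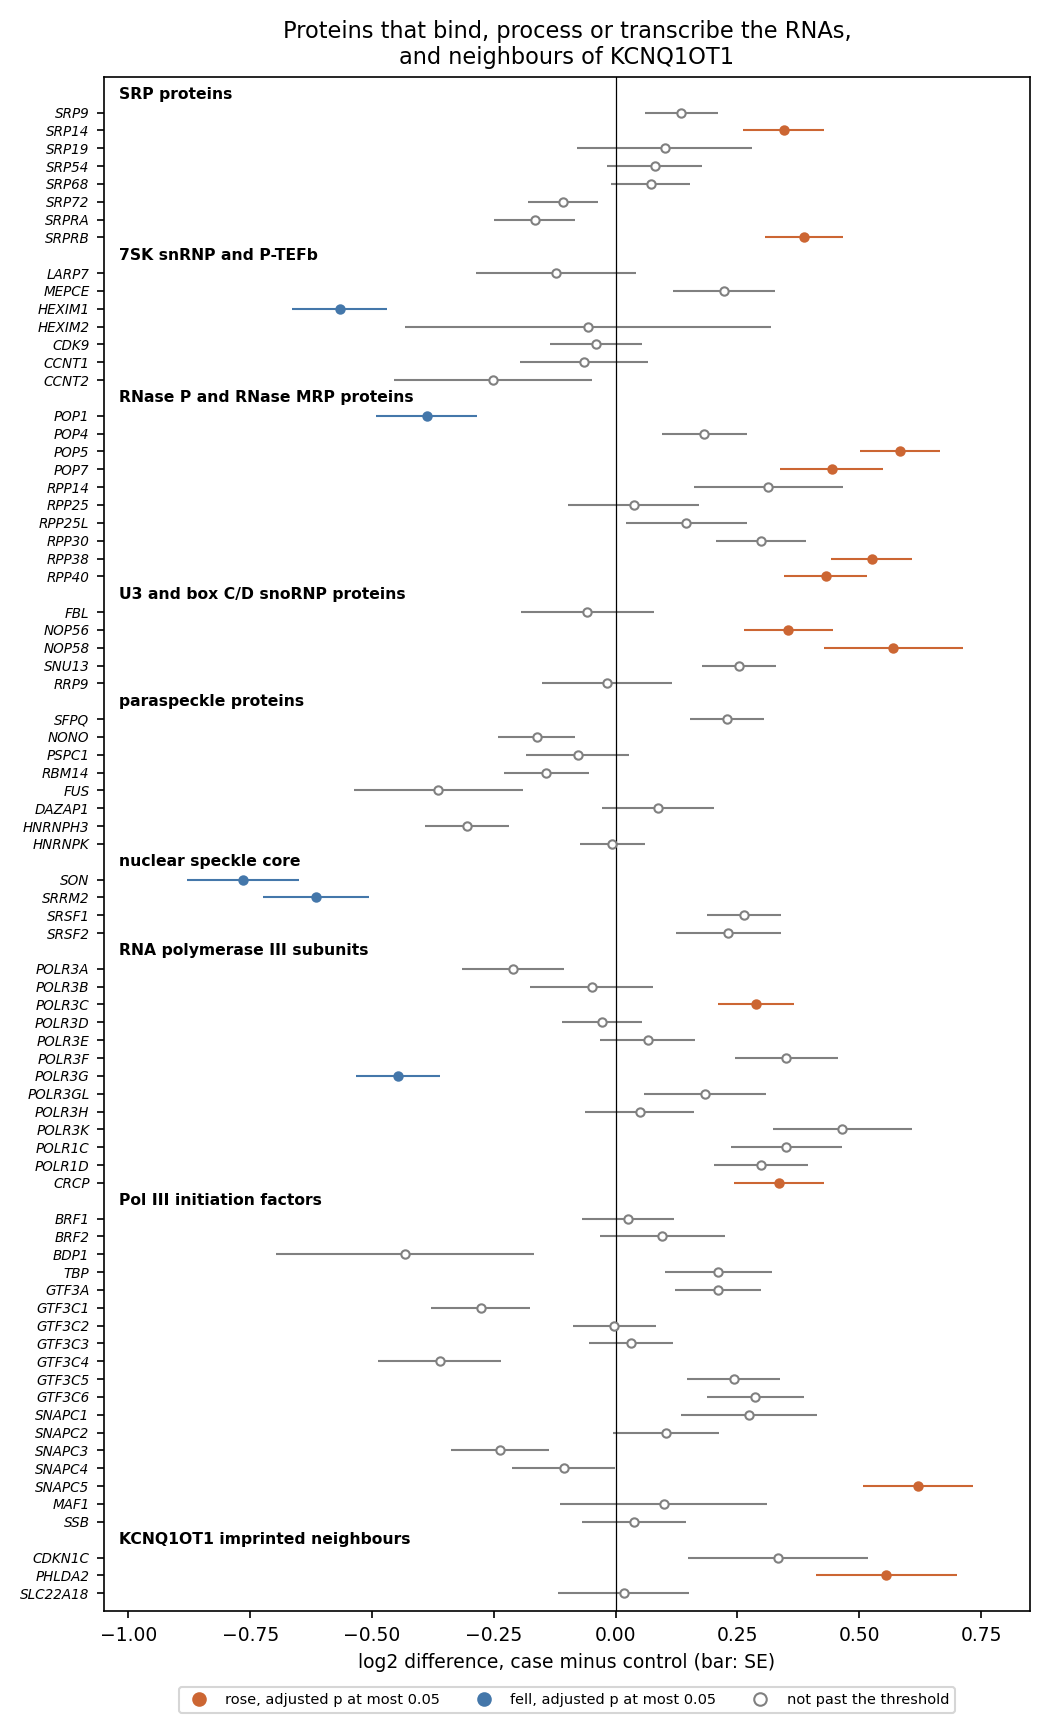
Log2 difference, case minus control, of the tested partner genes, genes of the Pol III machinery, and imprinted neighbours of *KCNQ1OT1*, with SE as bars; filled points passed an adjusted p of at most 0.05 (orange rose, blue fell). The 17 filled points lie between −0.77 and 0.62, and none of the paraspeckle genes is among them.

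All of these differences were smaller than those of *MALAT1*, *RN7SL2*, *RN7SL3*, and *SNORD3A*, which lay between 2.41 and 2.84. Under the 18 processing alternatives, the log2 difference ranged from 1.67 to 3.43 for *MALAT1*, from 1.42 to 3.03 for *RN7SL2*, from 1.59 to 3.13 for *RN7SL3*, and from 1.59 to 2.66 for *SNORD3A*. That of *NEAT1* lay between −0.23 and 0.30 and was negative as TPM, without case replicate 2, and with case replicate 1 as the only case library.

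**Figure D4:**
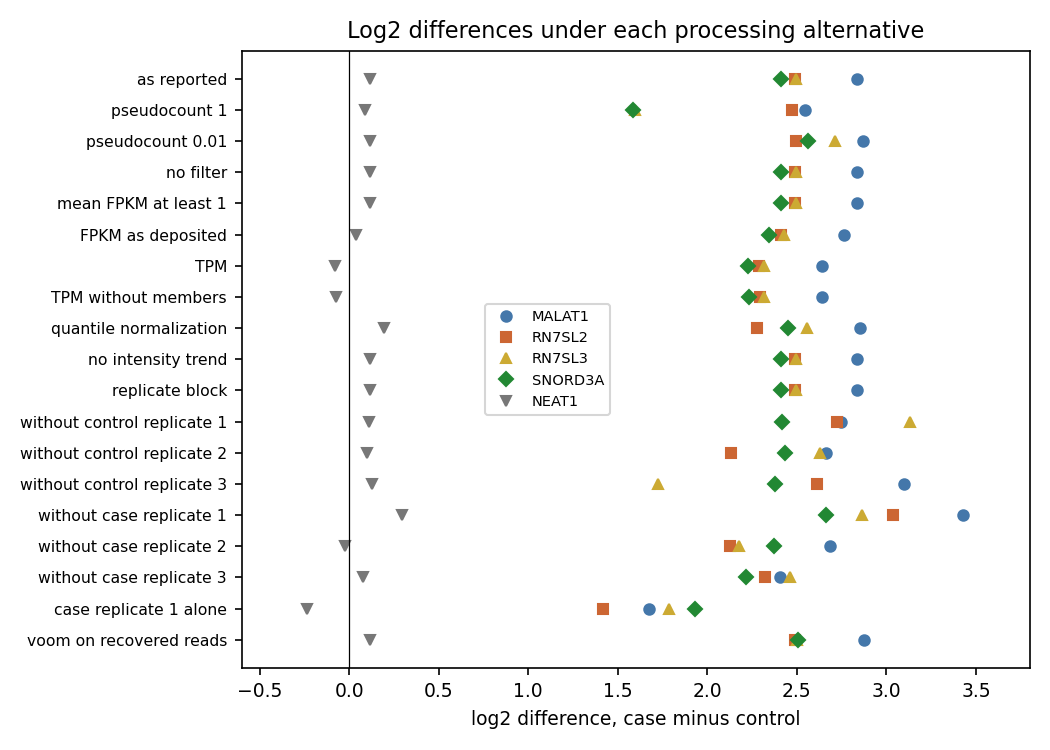
Log2 difference, case minus control, of 5 noncoding RNAs as reported and under 18 processing alternatives. All points of *MALAT1*, *RN7SL2*, *RN7SL3*, and *SNORD3A* lie above 1.4, and those of *NEAT1* lie near 0 on both sides.

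The windows around the GENCODE gene starts of all 10 RNAs (250 bases before to 50 after) were searched on both strands for letters of known promoter elements. The windows of all promoters came from a separate set (RefSeq, GRCh38.p14). TATAAA or TATAAG, letters of the TATA box, stood in the windows of *RN7SK*, *RMRP*, *RPPH1*, and *NEAT1*, and in 15.4% of 34943 promoter windows. TTTGCAT, the core of the octamer element, was found apart from those letters in those of *RN7SL3*, *RMRP*, and *RPPH1* and in 4.47% of all windows. GGTTCGA or GGTTCAA, the start of the B box of tRNA genes, was in none of the 10 and in 2.94% of all windows. None of these letters stood in the windows of *MALAT1*, *KCNQ1OT1*, *RN7SL1*, *RN7SL2*, and *SNORD3A*.

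The cell line was checked against markers of its type. Of 12 epithelial and proximal tubule markers, 5 had a mean FPKM of at least 0.5, the keratin genes *KRT8*, *KRT18*, and *KRT19*, and *EPCAM* and *CDH1*. The proximal tubule genes *AQP1*, *LRP2*, *CUBN*, *GGT1*, *ANPEP*, *SLC34A1*, and *PAX8* were below it, at most 0.175 FPKM on average in either group. The 12 markers summed to 924.5, 899.5, and 896.1 FPKM in the control libraries and to 902.2, 719.7, and 819.8 FPKM in the case libraries. *CDH1*, the epithelial cadherin, fell from 3.42 ± 0.0811 to 2.05 ± 0.248 FPKM (SD, n = 3 each; log2 difference −0.64, adjusted p = 0.0156, limma). The other 4 tested markers did not pass, with log2 differences of −0.27 for *KRT8*, 0.02 for *KRT18*, 0.02 for *KRT19*, and 0.04 for *EPCAM*. Of 8 markers of other cell types, 5 had a row and none passed the filter, with sums of 0.350 to 0.466 FPKM in the control libraries and 0.186 to 0.336 FPKM in the case libraries. In bulk RNA, fewer cells of a type and less RNA per cell cannot be told apart.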

How the data were processed

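Libraries of HK-2 RNA, 3 of the control and 3 of the case group, were sequenced. The authors aligned the filtered reads to GRCh38.p13 with HISAT2 2.1.0, counted them on genes with HTSeq 0.6.0, and deposited FPKM values of 29483 genes. RNA selection, strandedness, and annotation version are not given in the sources used here. Without strand, antisense reads cannot be told apart, and HTSeq by default drops reads with several positions. The study describes the replicates as independent and treated apart, and p-values measure the spread between these samples of a cell line.

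Whole reads and the depth of each library were recovered here from the steps of the FPKM values, within 0.01 reads, for all but 7 of the 27922 genes above 0. Recovered reads summed to 95.4% to 96.0% of the depth. Symbols were matched by Ensembl identifier for 23472 genes and positions for 29063, from GENCODE on GRCh38, which shares its primary coordinates with the build used by the authors. FPKM was divided by median-of-ratios factors, 0.1 was added, and the log2 values of the 13599 genes whose FPKM averaged 0.5 or more entered limma 3.58.1 (R 4.3.3) with an intensity trend and Benjamini-Hochberg adjustment, at a threshold of 0.05. The limma step was tested on simulated data, but the outcome is not given here and nothing is read from it. A few values were compared by exact permutation tests. The members and gene lists were chosen with earlier results of these data known. Named were the 10 RNAs, genes of the lists, and the DE genes and most abundant genes of each short RNA class. Alternatives were other pseudocounts (1 and 0.01), filters, scalings, no trend, a replicate block, each library left out, and, chosen after seeing the data, voom on recovered reads and case replicate 1 alone. Sequences were read from hg38 and RefSeq, and some sequences and a listed gene are not reported here.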

Additional observations from a re-analysis of the deposited data

How the results depend on the processing

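No called partner or short RNA gene changed direction under the alternatives that gave a value for it, and *CDH1* was not recomputed. *SCARNA7* and *RNU6-341P* had 0 reads in every control library and *SNORD116-2* had 0 in every case library. Their direction could not have changed, so nothing is read from it. *NEAT1*, near 0, was below 0 as TPM (−0.08), without case replicate 2 (−0.02), and with case replicate 1 alone (−0.23). *MALAT1*, *RN7SL2*, *RN7SL3*, and *SNORD3A* were higher in the case group under all alternatives run. The number of RNAs without overlap was 4 under the alternatives that change single libraries or scaling, except 5 without case replicate 1; it was not run with quantile normalization. Over all tested genes, 1792 were called, and in separate counts 520 were called with no filter, 2770 as TPM, 2711 as TPM without the 10 RNAs, 852 with no intensity trend, 4678 with case replicate 1 alone, and 2813 by voom on recovered reads, and 69 to 3495 with a library left out. Of the partner genes, 17 were called, against 9 with no filter, 8 with no intensity trend, 34 with case replicate 1 alone, and 0 to 31 with a library left out (at 0 calls by limma, 3029 and 3340 of all genes had an unadjusted p under 0.05). None of the 17 was called without each single library. With no filter or with no intensity trend, *SRP14*, *POP7*, *POP1*, *NOP58*, *NOP56*, *POLR3C*, *CRCP*, and *PHLDA2* did not pass, and *SRPRB* did not with no intensity trend. Of the short RNA genes, 9 were called, against 5 with a pseudocount of 0.01, 3 at a mean FPKM of at least 1, 3 with no intensity trend, 19 with case replicate 1 alone, 1 by voom, and 1 to 15 with a library left out. The share of the FPKM sum held by the 6 RNAs differed by 0.110 percentage points, by 0.00834 with the 7SL genes left out, by 0.0275 with case replicate 1 alone, and by 0.0767 to 0.151 with a library left out. The causes were not tested. With case replicate 1 alone the case group had no replicate, so the spread came from the control group and these counts describe that library. With the replicate number as a block, 1610 of all genes, 12 partner genes, and 14 short RNA genes were called; deviations of same-numbered libraries correlated at 0.0634, 0.0999, and −0.0535, so the numbers were not taken as pairs. *RN7SL3*, *KCNQ1OT1*, and the called short RNA genes had few reads, which limits their precision.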
